A study of Homo sapiens with 12 samples.

Results

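The RNA of 10 surface ligands, through which a leukaemia cell can be read by natural killer (NK) cells and T cells, was followed across 12 Affymetrix expression arrays of ML-2, an established human acute myeloid leukaemia cell line. The 10 genes were MICA, MICB, ULBP1, ULBP2, ULBP3, PVR, CD86, CD80, CD274 and LGALS9. Their members were all probe sets annotated to exactly 1 of these symbols, which gave 10 of 19775 genes and 22 of the 54675 probe sets on the array. Another probe set, annotated to MICA and MICB together, was left out by this rule. The solvent group had received solvent throughout, and the SGI-110 group 2 µM SGI-110, given in the labels as 33 h. The ASTX660 group had been kept in solvent before 5 µM ASTX660 was added for 9 h. The combination group had received 2 µM SGI-110 for 24 h and then 5 µM ASTX660 for 9 h. Whether SGI-110 stayed in the medium during the 9 h of ASTX660 is not stated. Comparisons between the SGI-110 and combination groups, and the interaction, cannot tell labelled SGI-110 time from ASTX660. Averages over these groups mix both times. Each of these 4 groups held 3 arrays, from 3 independent experiments per the series design, and the arrays carry the numbers 2, 9 and 13. SGI-110 (guadecitabine) is a hypomethylating agent that releases decitabine. ASTX660 (tolinapant) is an antagonist of inhibitor of apoptosis proteins. All groups came from the same cell line, and the arrays measured RNA of whole cultures, so ligand protein at the cell surface was not measured. In such bulk RNA a higher level in every cell and a larger share of cells with the RNA cannot be told apart.

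As background, MICA, MICB and the ULBP proteins are distant relatives of MHC class I that stressed or transformed cells display. They are bound by NKG2D, an activating receptor of NK cells and cytotoxic T cells. PVR (CD155) is shared by the activating receptor DNAM-1 and the inhibitory receptor TIGIT. CD80 and CD86 give T cells their costimulatory signal through CD28 and are captured by CTLA-4. CD274 (PD-L1) inhibits T cells through PD-1, and LGALS9 (galectin-9) is a ligand of TIM-3.

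A hypomethylating agent acts on methylated CpG sites, so the promoters of the genes are shown here for their CpG content. The lines below give the 250 bases before the annotated start, on the plus strand of GRCh38.p14 from RefSeq, in lower case with each CG dinucleotide in capitals. They were chosen to set the called ligands (MICA, ULBP2 and CD86, the last with both annotated starts) beside a close relative that was not called (MICB) and beside CD274. The positions are chr6:31403345-31403594 for MICA, chr6:31497895-31498144 for MICB, chr6:149941764-149942013 for ULBP2, chr3:122055112-122055361 and chr3:122077534-122077783 for CD86, and chr9:5450292-5450541 for CD274.
MICA: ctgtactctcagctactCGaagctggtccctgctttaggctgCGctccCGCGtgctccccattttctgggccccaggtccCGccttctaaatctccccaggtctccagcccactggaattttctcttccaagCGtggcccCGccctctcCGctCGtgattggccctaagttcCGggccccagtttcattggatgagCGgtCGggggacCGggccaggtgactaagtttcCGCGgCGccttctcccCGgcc
MICB: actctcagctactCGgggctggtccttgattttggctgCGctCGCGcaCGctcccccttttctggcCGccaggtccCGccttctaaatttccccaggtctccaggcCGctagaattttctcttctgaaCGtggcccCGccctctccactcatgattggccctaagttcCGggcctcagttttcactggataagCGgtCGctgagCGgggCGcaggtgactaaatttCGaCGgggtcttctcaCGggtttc
ULBP2: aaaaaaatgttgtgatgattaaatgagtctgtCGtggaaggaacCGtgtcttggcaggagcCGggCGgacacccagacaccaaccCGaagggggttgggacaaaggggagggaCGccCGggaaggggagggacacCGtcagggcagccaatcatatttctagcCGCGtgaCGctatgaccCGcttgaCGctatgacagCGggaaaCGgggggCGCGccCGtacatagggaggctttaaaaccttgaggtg
CD86 start 1: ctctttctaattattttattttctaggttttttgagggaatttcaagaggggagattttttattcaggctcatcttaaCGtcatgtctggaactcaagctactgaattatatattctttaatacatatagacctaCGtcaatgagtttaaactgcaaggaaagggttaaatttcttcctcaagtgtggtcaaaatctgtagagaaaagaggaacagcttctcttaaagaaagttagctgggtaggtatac
CD86 start 2: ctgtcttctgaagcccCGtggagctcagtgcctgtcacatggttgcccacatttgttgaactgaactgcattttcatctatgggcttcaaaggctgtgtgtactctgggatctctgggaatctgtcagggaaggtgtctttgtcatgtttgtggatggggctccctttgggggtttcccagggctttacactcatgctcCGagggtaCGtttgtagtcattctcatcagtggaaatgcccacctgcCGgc
CD274: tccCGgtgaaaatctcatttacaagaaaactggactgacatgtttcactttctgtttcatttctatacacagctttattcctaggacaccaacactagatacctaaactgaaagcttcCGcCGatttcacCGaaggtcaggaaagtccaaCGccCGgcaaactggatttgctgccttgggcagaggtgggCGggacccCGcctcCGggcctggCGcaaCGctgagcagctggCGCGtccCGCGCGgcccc

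CpG sites were counted in the whole RefSeq promoter window of 300 bases, which adds the 50 bases after the start. All 10 genes had an entry, 11 windows in all, and 35116 windows of the genome served as the comparison, with a median of 14 sites. MICA held 21 sites, MICB 20, ULBP1 26, ULBP2 19, ULBP3 27, PVR 27 and CD274 22, and between 28.2% and 42.9% of all windows held as many. CD86 held 3 and 4 sites at its 2 starts, CD80 held 7 and LGALS9 held 2. As many as these were found in 81.8% and 75.5% of windows for CD86, 63.2% for CD80 and 89% for LGALS9. The windows of the NKG2D ligands, PVR and CD274 thus held more CpG sites than the median window, and those of CD86, CD80 and LGALS9 fewer. No methylation value was measured in this study.

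**Figure D1:**
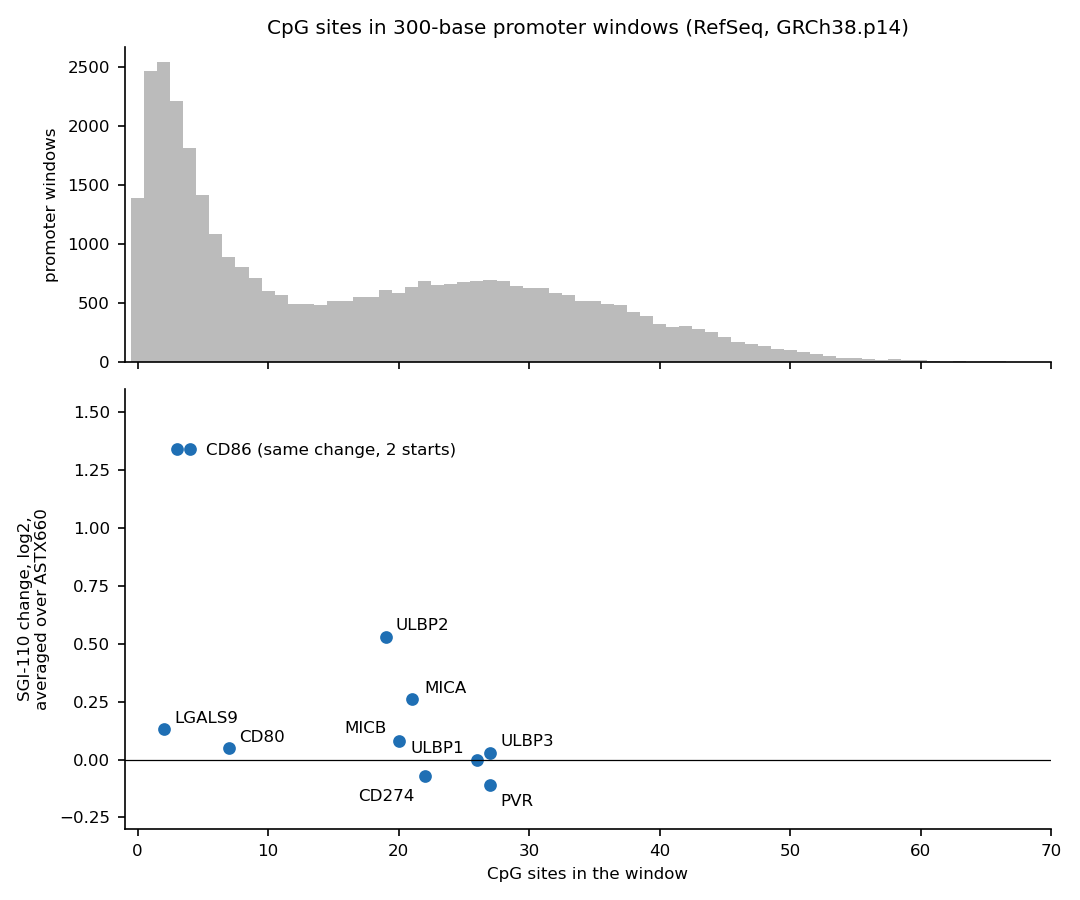
The upper panel counts RefSeq promoter windows (y axis) by the number of CpG sites they hold (x axis), and the lower panel sets the CpG sites of each ligand gene against its SGI-110 change in log2 units, averaged over the presence of ASTX660. On the brightest probe set of each gene, CD86, with 3 and 4 sites, had the highest change among the 10 genes. Its probe set was the brightest of CD86 only through the arrays with SGI-110. ULBP2 with 19 sites and MICA with 21 lay above MICB with 20.

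Short sequence motifs were searched in the 300-base windows on both strands. The Sp1 core GGGCGG, present in 45% of all windows, occurred in MICA, MICB, ULBP1, ULBP2, ULBP3 and CD274. The CCAAT box, present in 34.6%, occurred in MICA, MICB and ULBP2. The heat shock motif GAANNTTC, present in 6.77%, occurred in MICA and MICB, and the STAT motif TTCNNNGAA, present in 7.66%, in CD274. The second CD86 start held 2 overlapping matches to the NF-kB motif, which 5.91% of windows hold. The MICA and MICB windows aligned with 78.2% identity, so they share most of these letters although only MICA was called in the arrays. Each match describes letters in a window and is no evidence of binding.

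The arrays were alike in brightness, with medians from 4.69 to 4.77 log2 units, and the labelled identity of the cells was checked on marker lists. Of the 7 myeloid markers measured, 5 lay above the array median on all arrays, and the mean log2 level of the list was 8.52 to 8.66 in solvent, 8.79 to 8.84 with SGI-110, 8.51 to 8.55 with ASTX660 and 8.75 to 8.85 with the combination. The marker lists of other blood cells had lower means, but not all of their markers were dim or absent. Above the median on all arrays were 2 of 7 T cell, 4 of 7 NK cell, 3 of 5 B cell and 2 of 6 dendritic cell markers, and on no array 4, 2, 2 and 3 of them. The highest mean of each list on any array was 4.38, 5.89, 5.00 and 5.26 log2 units. The NK cell markers NKG7 and NCAM1 were brighter than the myeloid marker SPI1. NKG7 was 9.06 to 9.22 on the arrays with SGI-110 and 8.80 to 8.93 on the others, and NCAM1 7.97 to 8.19 and 8.19 to 8.39. The mean of the NK cell list was 5.82 to 5.85 in solvent and 5.81 to 5.89 with SGI-110. The mean of 8 fibroblast and epithelial markers was 4.72 to 4.80 in solvent and 4.59 to 4.81 with ASTX660, against 4.88 to 5.02 with SGI-110 and 4.89 to 5.03 with the combination. In that list the keratin gene KRT8 was 6.22 to 7.03 on the 6 arrays with SGI-110 and 5.79 to 6.08 on the others, and KRT18 was 6.69 to 7.37 and 5.80 to 6.45. The mean of the myeloid list was also higher on the arrays with SGI-110. The part of that list, of NKG7 and NCAM1 and of these keratin genes in the results below was not tested. Response to SGI-110 was checked on CDKN1A, a cell cycle inhibitor, and TP53I3, an oxidoreductase gene, which rose by 2.33 and 3.82 log2 units against solvent.

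Levels were tested at the gene level on the brightest probe set of each gene, and a gene was tested where this probe set exceeded the array median on at least 3 arrays. This left 12689 of 19775 genes, among them 6 of the 10 ligands: MICA, MICB, ULBP2, PVR, CD86 and LGALS9. Genes with a limma p under 0.05 after Benjamini-Hochberg adjustment over all 12689 are written as called. Against solvent, SGI-110 called 3 of the 6 ligands higher (ULBP2, MICA and CD86) and none lower, where 9.5% of all tested genes were called higher. The combination against solvent called the same 3 higher, against 12.1% of all genes, but this comparison uses the same solvent arrays. The combination against ASTX660, which shares no array with SGI-110 against solvent, called ULBP2 and CD86 higher, against 8.37% of all genes. The average of these last comparisons, 6 arrays with SGI-110 against 6 without, called ULBP2, CD86 and MICA higher, where 15.8% of all genes were called higher and 14.1% lower. CD86 entered the test only through the SGI-110 arrays, as described below, so these counts are descriptions and were read with the values of each gene.

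**Figure D2:**
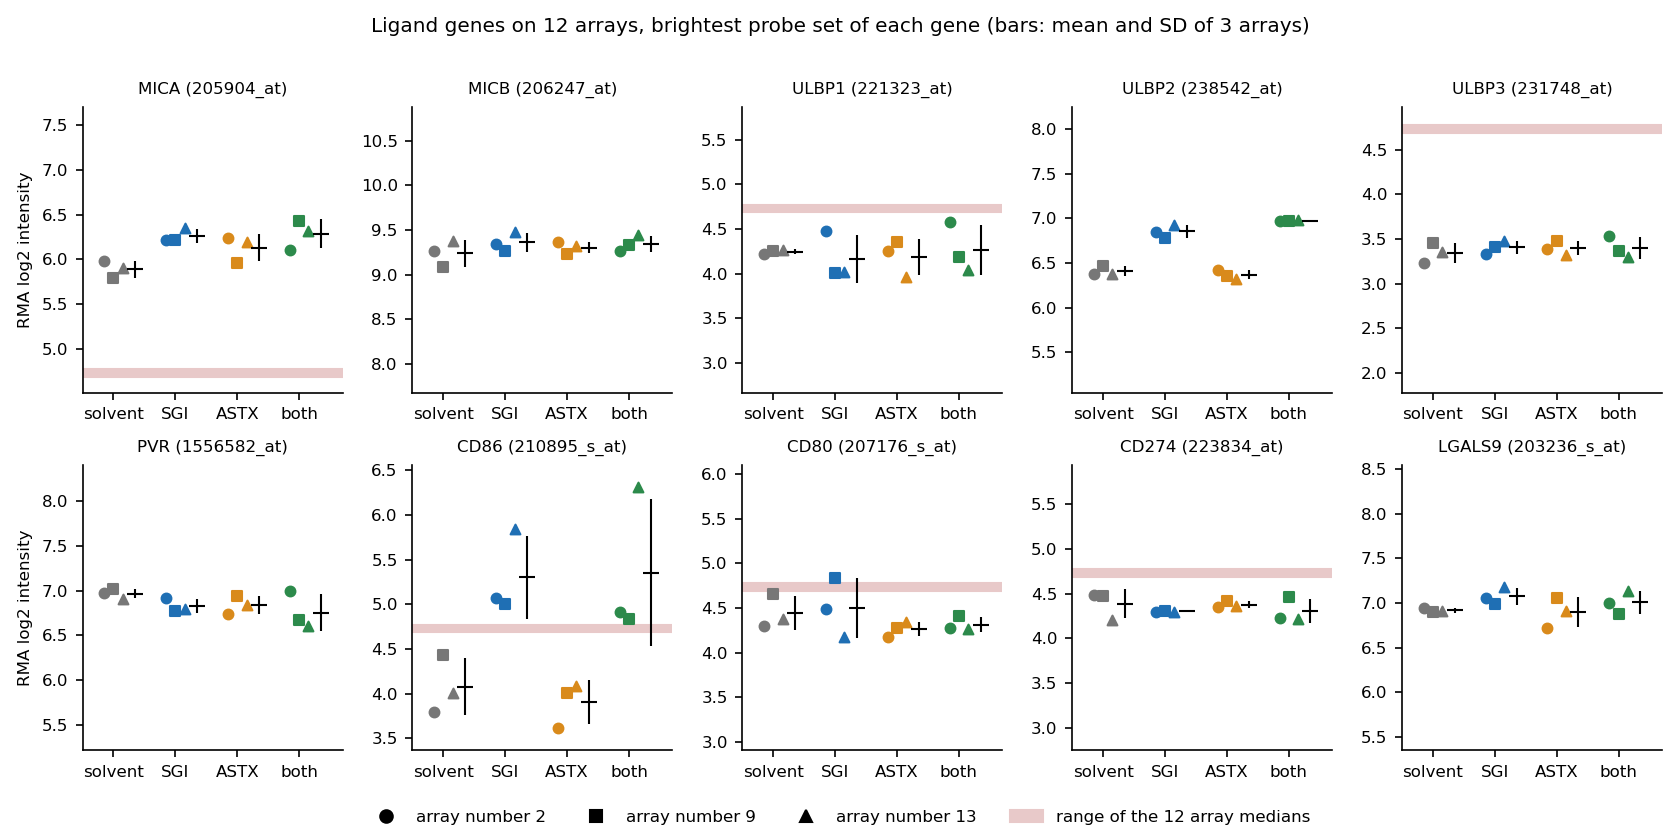
Each panel shows the log2 intensity (y axis) of the brightest probe set of a ligand gene on the 3 arrays of each treatment group (x axis; SGI is SGI-110, ASTX is ASTX660, both is the combination), with the group mean and SD as a bar and the range of the 12 array medians as a band; all panels span the same number of log2 units. ULBP2 and CD86 lay higher on all 6 arrays with SGI-110 than on any of the 6 without, MICA overlapped, and the points of ULBP1, ULBP3 and CD274 stayed below the band.

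ULBP2, a GPI-anchored NKG2D ligand, rose with SGI-110 in the presence and in the absence of ASTX660. On probe set 238542_at its log2 level was 6.38, 6.47 and 6.38 in solvent, 6.85, 6.78 and 6.93 with SGI-110, 6.42, 6.36 and 6.32 with ASTX660, and 6.97, 6.97 and 6.98 with the combination (arrays 2, 9 and 13). All 6 arrays with SGI-110 were above all 6 without it. The share of all genes separated in this way is not given here, so such separations, also those below, are descriptions. The rise was 1.36-fold against solvent (log2 0.44, SE 0.0682, adjusted p = 0.000708) and 1.52-fold for the combination against ASTX660 (log2 0.61, adjusted p = 7.77e-05). Averaged, it was 1.44-fold (log2 0.53, 95% interval 0.42 to 0.63, adjusted p = 3.71e-06). In order of level the groups ran from ASTX660 (6.365 ± 0.0476, SD, n = 3) and solvent (6.408 ± 0.0506), which overlapped, to SGI-110 (6.852 ± 0.0763) and the combination (6.972 ± 0.00604).

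The combination arrays were all above the SGI-110 arrays for ULBP2, but the difference of 0.12 log2 was not called (adjusted p = 1). A second ULBP2 probe set, 221291_at, is dimmer, with 4.71, 4.80 and 4.83 in solvent, 5.05, 5.08 and 5.08 with SGI-110, 4.74, 4.74 and 4.55 with ASTX660, and 5.22, 4.73 and 5.01 with the combination. Its combination array 9 lay among the arrays without SGI-110, and the other SGI-110 arrays lay above them. In a test of all 41091 probe sets of 1 gene with no brightness filter, its averaged rise was 0.30 log2 (adjusted p = 0.0168), and it was called in neither comparison that makes up the average. Both probe sets report the same RNA and are not replicates, and ULBP2 has close relatives in the same gene cluster whose RNA the probes could also bind, which was not tested.

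MICA, a transmembrane NKG2D ligand, was also called higher with SGI-110 against solvent. The size of this change was not tested against that of ULBP2. The MICA log2 level on probe set 205904_at was 5.98, 5.79 and 5.90 in solvent and 6.22, 6.22 and 6.35 with SGI-110. It was 6.24, 5.96 and 6.20 with ASTX660, and 6.11, 6.43 and 6.32 with the combination. The SGI-110 and combination arrays were all above the solvent arrays, whereas the ASTX660 arrays overlapped with the combination arrays. The rise was 1.30-fold against solvent (log2 0.37, SE 0.101, adjusted p = 0.022) and 1.32-fold for the combination against solvent (log2 0.40, adjusted p = 0.0145). Against ASTX660 the combination differed by 0.15 log2 (95% interval -0.06 to 0.37, adjusted p = 0.35), and the averaged rise was 0.26 log2 (0.11 to 0.42, adjusted p = 0.0124).

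The group means of MICA ran from solvent (5.888 ± 0.0951, SD, n = 3) over ASTX660 (6.135 ± 0.152) and SGI-110 (6.263 ± 0.0743) to the combination (6.287 ± 0.165), and the last 3 overlapped. ASTX660 alone was 0.25 log2 above solvent, with an unadjusted p of 0.0286 by limma and an adjusted p of 0.701. The interaction, which is the SGI-110 change with ASTX660 minus the change without it, was -0.22 log2 for MICA (95% interval -0.53 to 0.08) and was not called. The MICA calls were lost when some arrays were left out. Against solvent, adjusted p for SGI-110 was 0.0945 without solvent array 9, 0.0525 without solvent array 13, 0.0863 without SGI-110 array 13 and 0.176 without the 4 arrays numbered 13. For the combination it was 0.0683 without solvent array 9, 0.0584 without combination array 9 and 0.0946 without the arrays numbered 13, and leaving those out also ended the averaged call (0.0877). In the fit of all probe sets the averaged MICA call (adjusted p = 0.0239) was lost without solvent array 9, SGI-110 array 13, ASTX660 array 9, combination array 9 or combination array 13.

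MICB, the nearest relative of MICA, was bright on all arrays and was not called in any comparison. Its log2 level was 9.26, 9.08 and 9.38 in solvent, 9.34, 9.27 and 9.48 with SGI-110, 9.36, 9.23 and 9.32 with ASTX660, and 9.26, 9.33 and 9.44 with the combination. All groups overlapped, and array 9 was the lowest of its group in every group but the combination. The averaged SGI-110 change was 0.08 log2 (adjusted p = 0.328). MICA and MICB were not tested against each other, so their changes are not shown to differ.

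ULBP1 and ULBP3, the remaining NKG2D ligands, stayed under the brightness filter. ULBP1 ran from 3.96 to 4.58 and ULBP3 from 3.23 to 3.53 over the 12 arrays, all below the array medians. In the fit of all probe sets their averaged SGI-110 changes were 0.00 (95% interval -0.22 to 0.23) and 0.03 (-0.10 to 0.17). Neither was called in any comparison. The ULBP3 promoter window held 6 matches to the Sp1 core and its 27 CpG sites were the joint highest number of the 10 genes.

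CD86, the CD28 and CTLA-4 ligand that monocytes and dendritic cells carry, showed the highest fold of the 10 ligands on the brightest probe sets. That ranking rests on 210895_s_at, as the other CD86 probe sets below changed less. On probe set 210895_s_at the log2 level was 3.80, 4.43 and 4.01 in solvent, 5.07, 5.00 and 5.84 with SGI-110, 3.62, 4.01 and 4.09 with ASTX660, and 4.92, 4.84 and 6.31 with the combination. All 6 arrays with SGI-110 were above the 6 without it, and among the former the arrays numbered 13 were highest. The rise was 2.34-fold against solvent (log2 1.23, SE 0.327), 2.74-fold for the combination against ASTX660 (log2 1.45), and 2.53-fold in the average (log2 1.34, 95% interval 0.84 to 1.84). The group means were 3.908 ± 0.249 with ASTX660 and 4.079 ± 0.321 in solvent, which overlapped, and 5.304 ± 0.464 with SGI-110 and 5.36 ± 0.827 with the combination (SD, n = 3), which overlapped too.

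CD86 passed the brightness filter only through the SGI-110 arrays: 6 of the 6 arrays with SGI-110 and 0 of the 6 without it exceeded their median. Its gene-level call is therefore not independent of the filter, and the fit of all probe sets without a filter was used for it. That fit does not undo the choice of probe set. 210895_s_at averaged 3.993 without SGI-110, under the 4.095 of 205685_at, and 5.332 with SGI-110 against 4.367. It was thus the brightest CD86 probe set only through the arrays with SGI-110, and its call is not free of this choice. In the fit without a filter adjusted p was 0.0258 for SGI-110 against solvent and 0.0171 for the combination against solvent. It was 0.00901 for the combination against ASTX660 and 0.000469 for the average. The 2 other CD86 probe sets stayed below the medians on all arrays. 205685_at ran from 3.87 to 4.58 and 205686_s_at from 3.19 to 3.89, with averaged changes of 0.27 (adjusted p = 0.0949) and 0.23 (adjusted p = 0.205) that were not called. 205685_at was called with the array number as a block (adjusted p = 0.0424) and without solvent array 9 (log2 0.35, adjusted p = 0.0278).

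Some CD86 calls also depended on single arrays. For SGI-110 against solvent the gene-level adjusted p was 0.0208, but 0.0802 without solvent array 2, 0.0566 without solvent array 13, 0.0957 without SGI-110 array 13 and 0.0671 with robust variance estimation. For the combination against solvent it was 0.0152, but 0.0617 without solvent array 2 and 0.052 with robust estimation. There the CD86 change fell from 1.28 to 0.81 log2 without combination array 13 and to 0.77 without all arrays numbered 13, and the gene was still called. In the fit without a filter, the averaged call of CD86 210895_s_at held with the block, with both other normalizations and with each array left out in turn (adjusted p from 1.01e-06 to 0.00193).

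CD80, the other CD28 and CTLA-4 ligand, was dim on its 3 probe sets. 207176_s_at ran from 4.17 to 4.84, 1554519_at from 3.52 to 4.02 and 1555689_at from 2.33 to 2.80, and only SGI-110 array 9 of 207176_s_at exceeded its array median. None of the 3 was called, and the averaged SGI-110 changes ran from -0.09 to 0.05 log2 (smallest adjusted p = 0.509). The change of CD80 was not tested against that of CD86.

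CD274, the PD-1 ligand, was below the array medians on both probe sets and all arrays. 223834_at ran from 4.20 to 4.49 and 227458_at from 2.90 to 3.47. The averaged SGI-110 changes were -0.07 and -0.12 log2 (smallest adjusted p = 0.352), with 95% intervals between -0.28 and 0.08 for both probe sets. CD80 and CD274 were also not called with ASTX660.

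PVR, the DNAM-1 and TIGIT ligand, was measured by 7 probe sets, all above the array median on all arrays. On the brightest, 1556582_at, the log2 level was 6.97, 7.02 and 6.91 in solvent, 6.92, 6.77 and 6.79 with SGI-110, 6.74, 6.94 and 6.84 with ASTX660, and 6.99, 6.67 and 6.60 with the combination. Combination array 2 stood with the solvent arrays and the other combination arrays lay below them. The averaged SGI-110 change was -0.11 log2 (adjusted p = 0.248) and the combination differed from solvent by -0.21 (adjusted p = 0.154). Over the 7 probe sets the averaged changes ran from -0.18 to 0.02, with 6 below 0 and none called (smallest adjusted p = 0.162), but 216283_s_at was called lower without ASTX660 array 2 (log2 -0.23, adjusted p = 0.047). Without combination array 2, PVR was called lower in the combination against solvent (log2 -0.33, adjusted p = 0.023) and in the average (log2 -0.17, adjusted p = 0.0394).

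LGALS9, the TIM-3 ligand, was 6.95, 6.90 and 6.91 in solvent, 7.06, 6.99 and 7.18 with SGI-110, 6.72, 7.06 and 6.91 with ASTX660, and 7.00, 6.88 and 7.14 with the combination. The SGI-110 arrays were above the solvent arrays, and the other groups overlapped. The SGI-110 change against solvent was 0.16 log2 (adjusted p = 0.313) and the averaged change 0.13 (adjusted p = 0.148), so it was not called. LGALS9 has near-identical copies in the genome whose RNA its probe set could also bind.

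**Figure D3:**
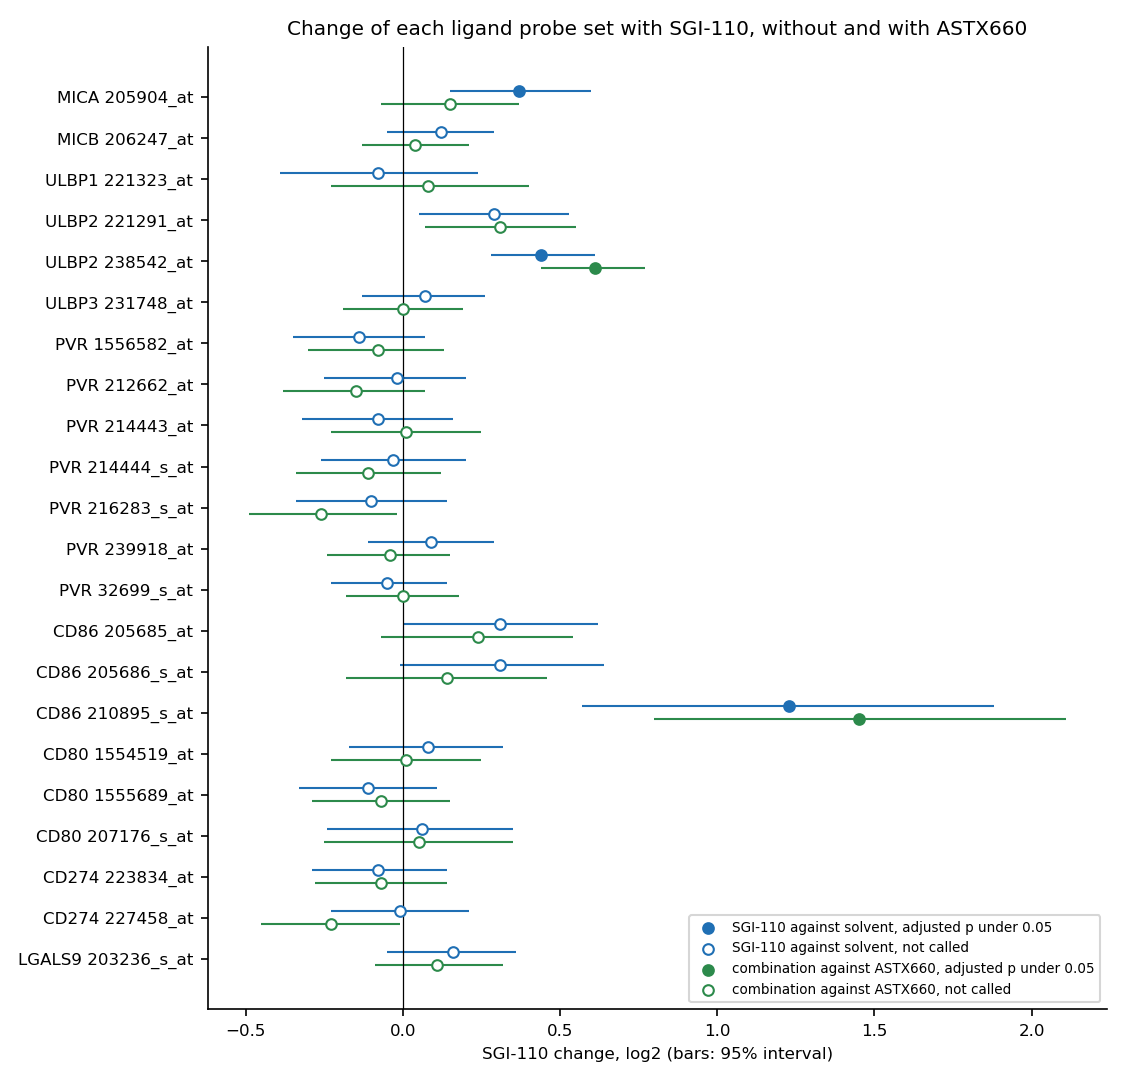
The log2 change with its 95% interval (x axis) is drawn for each of the 22 ligand probe sets (y axis) with SGI-110 against solvent (blue) and with the combination against ASTX660 (green), from the fit of all probe sets; filled points have an adjusted p under 0.05. ULBP2 238542_at and CD86 210895_s_at were called in both comparisons, MICA without ASTX660, and the intervals of PVR, CD80 and CD274 lay around or below 0.

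Taking all 22 probe sets, 4 were called higher in the SGI-110 average and none lower, which is 18.2%. Of all 41091 probe sets, 14% were called in either direction, so the ligands' share was near that background. By gene, ULBP2 and CD86 were called in the presence and in the absence of ASTX660, MICA in its absence and in the combination against solvent, and the other 7 genes in no comparison.

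ASTX660 alone was next set against solvent to ask whether it changed the ligands. None of the 6 tested ligands was called, where 0% of all genes were called in either direction. The changes were 0.25 for MICA, 0.06 for MICB, -0.04 for ULBP2, -0.13 for PVR, -0.17 for CD86 and -0.03 for LGALS9 in log2 units. ASTX660 added after SGI-110 (combination against SGI-110) gave values from -0.07 to 0.12, and again 0% of all genes were called. The interaction and the averaged ASTX660 effect also called 0% of all genes each. By limma, 894, 370, 204 and 1063 of the 12689 genes had an unadjusted p under 0.05 in these 4 comparisons, and a fit with the array number as a block called 1, 10, 0 and 22 genes, no ligand among them.

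The interaction of ULBP2 was 0.16 log2 (95% interval -0.04 to 0.37) and that of CD86 was 0.23 (-0.77 to 1.22). These intervals are wide, so the arrays do not show that the SGI-110 change was the same with and without ASTX660. The labelled SGI-110 time, 33 h alone and 24 h in the combination, cannot be told apart from ASTX660 here. MICA was called with SGI-110 against solvent but not with the combination against ASTX660. Its interaction, given above, was not called either, so a difference between these changes was not shown.

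Other ligands were read from lists chosen for their receptors, and each count of the SGI-110 average below stands beside the 15.8% of all genes called higher and the 14.1% called lower. Among other ligands of NK cell receptors, 14 of 23 were tested and 7 rose, 0 fell and 7 were not called in the SGI-110 average, with a median change of 0.17 beside -0.005 for all genes. HLA-E, which engages the inhibitory receptor CD94/NKG2A, was 10.70, 10.73 and 10.75 in solvent, 11.00, 10.95 and 11.03 with SGI-110, 10.63, 10.61 and 10.73 with ASTX660, and 11.06, 10.89 and 10.99 with the combination. All 6 arrays with SGI-110, alone or combined, were above the 6 without it, and HLA-E rose by 0.30 log2 (adjusted p = 3.34e-05). CD58, the adhesion ligand of CD2, rose by 0.29 (adjusted p = 0.000576). HLA-G and HLA-F, further non-classical class I genes, each rose by 0.18 (adjusted p = 0.000495 and 0.000917), and probes of class I genes can bind RNA of their relatives. The probe sets of CD58 ran from 0.05 to 0.29 and those of HLA-F from -0.01 to 0.18. The others that rose, named after their values were seen, were ICAM1 (0.29), NECTIN2 (0.17), which shares DNAM-1 with PVR, and CLEC2B (0.09). The probe sets of ICAM1 ran from 0.01 to 0.29 and those of CLEC2B from -0.18 to 0.09. In the fit of all probe sets, those used for CLEC2B (adjusted p = 0.0693) and NECTIN2 (adjusted p = 0.077) were not called. No CLEC2B probe set was called there, and 1 of the 4 NECTIN2 probe sets was.

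The other costimulatory and checkpoint ligands of T cells were mixed, with 19 of 25 tested, 8 higher, 1 lower and 10 not called, beside 15.8% higher and 14.1% lower of all genes, and a median of 0.00. TNFSF9 (4-1BB ligand), which costimulates T cells and NK cells, was 6.52, 6.29 and 6.84 in solvent, 8.07, 7.91 and 8.09 with SGI-110, 6.84, 6.59 and 6.99 with ASTX660, and 7.86, 7.88 and 8.19 with the combination. The 6 arrays with SGI-110, alone or combined, were all above the 6 without, and TNFSF9 rose 2.50-fold in the average (log2 1.32, adjusted p = 5.42e-07). CD70, the ligand of CD27, was 9.54, 9.29 and 9.58 in solvent, 10.19, 10.00 and 10.21 with SGI-110, 9.69, 9.30 and 9.64 with ASTX660, and 10.33, 9.99 and 10.26 with the combination. Its 6 arrays with SGI-110, alone or combined, also lay above the 6 without, and it rose 1.58-fold (log2 0.66, adjusted p = 3.64e-05).

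LGALS3 (galectin-3), a LAG-3 ligand, rose by 1.20 log2 on its brighter probe set (adjusted p = 5.08e-09), whereas the 2 probe sets ran from 0.00 to 1.20. TNFSF14 (LIGHT), a ligand of HVEM, rose by 0.65 (adjusted p = 0.000462, and 0.000447 without the brightness filter), but it exceeded the array median on 5 arrays with SGI-110 and on 0 without, and its other probe set changed by -0.03. Named after their values were seen, HHLA2 (0.53), TNFSF4 (0.50), VSIR (0.48) and BTN2A2 (0.25) rose too. The probe sets of HHLA2 ran from -0.09 to 0.53 and those of BTN2A2 from -0.05 to 0.25. BTN3A3, a butyrophilin, fell by 0.24 log2 (adjusted p = 0.0325), with overlap between arrays with and without SGI-110. In the fit of all probe sets, that used for BTN3A3 was not called (adjusted p = 0.0597), though 1 of its 2 probe sets was.

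**Figure D4:**
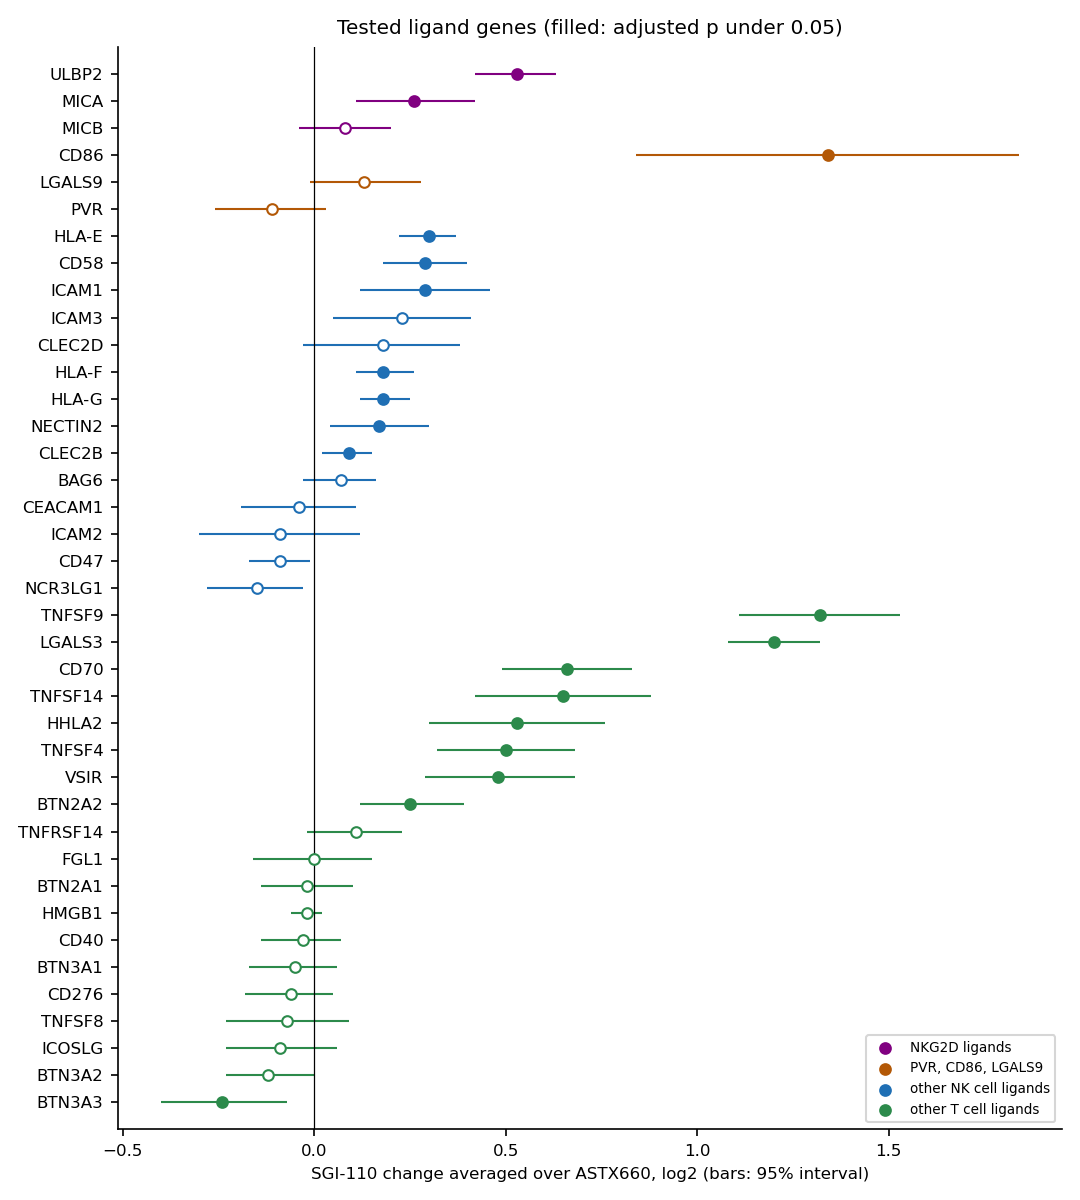
The SGI-110 change averaged over ASTX660 in log2 units with its 95% interval (x axis) is drawn for the tested ligand genes (y axis), coloured by list and filled where the adjusted p was under 0.05. On the brightest probe set of each gene, CD86 (1.34), TNFSF9 (1.32) and LGALS3 (1.20) had the highest changes. The CD86 probe set was the brightest of its gene only through the arrays with SGI-110, and the other CD86 probe sets changed by 0.27 and 0.23. ULBP2 (0.53) lay near HHLA2 (0.53), and BTN3A3 (-0.24) was the gene called lower.

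Genes that act on the surface level of the ligands, or of the receptor CTLA-4 in the case of LRBA, were also counted. Of 14 proteases and partners, 13 were tested, 8 rose, 1 fell and 4 were not called, beside 15.8% higher and 14.1% lower of all genes, with a median of 0.19. SPPL2A, an intramembrane protease, rose by 0.55 log2 (adjusted p = 7.02e-06), and MMP9, a matrix metalloproteinase, by 0.49 (adjusted p = 0.00189). CMTM4, a partner that holds PD-L1 at the membrane, rose by 0.36 (adjusted p = 0.00247), a call lost when the most variable probe set stood for the gene (adjusted p = 0.0682). LRBA, which protects CTLA-4 from degradation, fell by 0.58 (adjusted p = 6.39e-06). The sheddases ADAM10 and ADAM17, which release MICA and other NKG2D ligands from the membrane, rose by 0.19 and 0.20, as did MMP2 (0.73), CMTM6 (0.20) and CTSS (0.18), all named after their values were seen. The probe sets of MMP2 ran from -0.05 to 0.73, those of CMTM6 from 0 to 0.20 and those of CTSS from -0.02 to 0.18. In the fit of all probe sets no CTSS probe set was called (adjusted p = 0.064 for that used).

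Of 21 signalling genes linked to NKG2D ligands or PD-L1, 19 were tested, 5 rose, 1 fell and 13 were not called, with a median of 0.05. Of all genes 15.8% were called higher and 14.1% lower. STAT3 rose by 0.50 (adjusted p = 3.29e-06), though its probe sets ran from -0.09 to 0.68. The interferon gamma receptor chains IFNGR1 and IFNGR2 rose by 0.42 (adjusted p = 1.68e-05) and 0.31 (adjusted p = 0.000173), and STING1, the adaptor of cytosolic DNA sensing, by 0.34 (adjusted p = 0.00233). SP1 (0.21) rose and JAK2 fell by 0.22, both named after their values were seen. Of 11 genes listed as receptors of the ligands or their partners, 3 were tested and none was called at the gene level. They were HCST (0.18, adjusted p = 0.0957), CTLA4 (-0.09, adjusted p = 0.441) and HAVCR2 (-0.03, adjusted p = 0.843). The 5 CTLA4 probe sets ran from -0.30 to 0.01, and 1 of them was called in the fit of all probe sets. ASTX660 alone called no gene of any of these lists.

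The genes whose levels followed a called ligand most closely over the 12 arrays were taken by Pearson correlation, as a description. For ULBP2 they were MYO5C (r = 0.987), MAST3 (r = 0.985) and SLC27A3 (r = 0.984). For CD86 they were GTF3C5 (r = 0.959), OLFML2A (r = 0.956) and HSPG2 (r = 0.949), and for MICA they were FRA10AC1 (r = 0.963), ZNRF2 (r = 0.945) and TSEN34 (r = 0.945). The treatment groups and array numbers are common to all of these values, so the 12 arrays are not independent points.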

How the data were processed

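Total RNA of ML-2 cells (100 ng per array, per the labels' protocols) was labelled with biotin and hybridised to 12 arrays. The deposited values are log2 intensities made by the authors with RMA and the affy package, per the submitters' processing notes, whose versions and whose settings are not given in the sources used here. RMA pulls low values together, which understates changes of dim genes. Symbols came from the platform annotation: 41097 probe sets had 1 gene symbol, 1801 several, and 11777 were not listed.

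A mean per group was fitted over all 12 arrays with limma 3.58.1 in R 4.3.3 (lmFit, contrasts.fit, eBayes with trend), with 8 residual degrees of freedom and Benjamini-Hochberg adjustment. The fit was tested on simulated data with noise independent between arrays. That simulation cannot say how the fit behaves where arrays of the same number vary together. The number of arrays limits the precision: the median SE of a difference between 2 groups was 0.085 log2. Named were all 10 members, up to 4 genes per list by smallest adjusted p, 3 genes most alike each called member, CDKN1A and TP53I3. The members and lists were chosen with earlier results of these data known.

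The array numbers were used as a block only in an alternative. Other alternatives changed centring, quantile normalization, the probe set of a gene, the brightness filter, variance estimation, array weights, the arrays in the fit, and left out each array. RAET1G, RAET1L, KLRK1 and PDCD1 had no probe set of their own symbol alone and were not analysed here. Some listed items are not reported here.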

Additional observations from a re-analysis of the deposited data

How the results depend on the processing

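Of 51 results for single genes under up to 24 alternatives, 29 were called. Of these, 23 were called in every alternative in which the gene was tested, and 6 were not called in some. CD86 and TNFSF14 were not tested in some alternatives, and those do not count against them here. None of the 29 changed sign. Of the 22 not called, 3 were called in some alternative. The number of ligands called with SGI-110 against solvent was 3, and ran from 1 to 3 when an array was left out. Without solvent array 13 or SGI-110 array 13 it was 1. For the combination against ASTX660 it was 2. With the mean of all probe sets, CD86 was too dim to be tested in any comparison. The count was then 2 with SGI-110 against solvent, 2 with the combination against solvent and 2 in the SGI-110 average. It was 1 with the combination against ASTX660. The labels do not say what the numbers 2, 9 and 13 share. Deviations from the group means of arrays with the same number correlated at 0.057 to 0.572, above 0.1 in 14 of 15 pairs, and 7 of the 12 arrays correlated best with their own number in every other group. In the paired fit with a replicate block, ligands called numbered 3 in the SGI-110 average, as without it, and the block changed no call of a ligand gene. At the level of probe sets it added CD86 205685_at (0.27, adjusted p = 0.0424) in the average.

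Counts over all genes moved more. Calls with SGI-110 against solvent, the combination against solvent and the combination against ASTX660 numbered 1955, 2275 and 2038, and 3202, 3632 and 3378 with the block. Without the arrays numbered 13 they were 1046, 1305 and 1054, and 2496 in the SGI-110 average, which had 3796. Leaving out solvent array 9 gave 1239 and 1389 against solvent, and leaving out SGI-110 array 13 gave 1289. For the combination against ASTX660, leaving out combination array 2 or 13 gave 1310 and 1313, and fitting only the arrays compared gave 1232. The averaged ASTX660 effect called 1 gene without ASTX660 array 13.

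Changes that were not called and lay near 0 changed sign in places, and the cause was not tested. For ASTX660 against solvent, leaving out arrays gave -0.016 to 0.137 for MICB, -0.311 to 0.004 for CD86 and -0.108 to 0.061 for LGALS9. There PVR was 0.018 with the mean of all probe sets and 0.105 with the most variable probe set, and LGALS9 was 0.029 with array weights. For the combination against ASTX660 MICB ran from -0.012 to 0.082. HAVCR2 ran from -0.11 to 0.01 in the SGI-110 average. HCST was called higher without ASTX660 array 9 (0.25, adjusted p = 0.00879).

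ULBP1, ULBP3, CD80 and CD274 lie mostly below the array medians, where RMA understates changes, so small changes of their RNA can be missed. Comparisons over only the arrays compared were not run for the interaction and the averages, which need all groups.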
